A study of Oreochromis niloticus with 6 samples.

Results

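Growth hormone and prolactin receptors and the feedback inhibitors of their signalling pathway were followed in the liver of male Nile tilapia, Oreochromis niloticus, after knockdown of elovl6. This gene encodes an elongase of long-chain fatty acids. The genes were chosen by product description, as those described as growth hormone receptor, prolactin receptor, suppressor of cytokine signaling (SOCS) or cytokine-inducible SH2-containing protein (CISH), which gave 18 of the 29528 genes in the deposited table. There were 6 receptor genes and 12 feedback genes. In the knockdown group elovl6 was knocked down with antisense RNA. The comparison group is labelled negative control and wild type, although the treatment note of its samples names the knockdown too, and what these fish received is not given. Both groups ate the same pellets with 5% palm oil. The livers came from 18 fish, 9 per group, whose RNA was pooled in equal amounts over 3 replicate tanks per group and read as 3 libraries per group. The labels do not say whether the libraries of a group held separate pools of fish, nor the age of the fish, so p-values measure the spread between libraries, which may be technical.

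Growth hormone binds a receptor of the class I cytokine family on hepatocytes, which activates the Janus kinase JAK2 and the transcription factor STAT5 and, through these, transcription of igf1. The prolactin receptor signals in a like way and is known in tilapia for its part in salt and water balance. CISH and the SOCS proteins are made in response to the same signal and limit it. They bind phosphorylated receptors or kinases through an SH2 domain and mark them for degradation through a SOCS box, and SOCS1 and SOCS3 also block the kinase directly. SOCS4 to SOCS7 form another branch of the family, studied mainly with the epidermal growth factor and insulin receptors.

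The libraries held 14341242 to 14973737 reads in knockdown livers, against 15322360 to 17245179 in control livers. Libraries of a group differed by more than counting noise, with a chi-square per degree of freedom of 3.31 to 4.72 over pairs. The targeted gene had 39.3, 36.9 and 36.6 FPKM (reads scaled by gene length and library total) in the knockdown livers, against 163, 160 and 163 FPKM in the control livers. The groups differed over most of the transcriptome. Of 11431 tested genes, those with a mean of at least 1 FPKM over the 6 libraries, 78.2% were called changed at an adjusted p under 0.05 by the quasi-likelihood test of edgeR, 39.1% as higher and 39.1% as lower in the knockdown. A call by itself therefore says little about a gene here, and the size of each main change is given with it. Markers of other cell types moved with the groups too. The 35 exocrine pancreas genes, which tilapia livers can hold in islets of pancreatic tissue, summed to 268 to 442 FPKM in knockdown livers, against 47995 to 48709 FPKM in control livers, with 24 of 26 tested members lower and 2 higher. The 11 macrophage genes summed to 199 to 205 FPKM against 32.1 to 34.2 FPKM, with 8 of 8 tested members higher, and the 31 red blood cell genes to 2599 to 2820 FPKM against 17146 to 17744 FPKM, with 8 of 9 tested members lower. Control means of the macrophage genes LOC100697252, LOC100710555 and marco lay under 1 FPKM, so these were tested through their knockdown levels. The same held for both higher pancreas genes. The lower pancreas genes LOC100691584, LOC100698021, LOC100711807 and LOC109195662 had knockdown means under 1 FPKM and were tested through their control levels. The hepatocyte list was abundant in both groups (127270 to 127890 FPKM in the knockdown, 147590 to 151050 FPKM in the control), with 11 of 24 tested members higher and 11 lower. No read was found for 4 of the exocrine pancreas, 1 of the macrophage and 13 of the red blood cell genes. What part these shifts have in the values below was not tested.

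Growth hormone receptors were lower in knockdown livers and most feedback genes were higher. Of the 18 genes 10 were tested, and the other 8 were below the level filter. Both tested receptors fell, by less than 2-fold. Of the 8 tested feedback genes 6 rose, each by more than 2-fold, and 2 fell. Among all tested genes 22.1% were called at least 2-fold higher and 20.9% at least 2-fold lower. The groups did not overlap in any of the 10 tested members, nor in 79.5% of all tested genes. The median log2 fold change, knockdown over control, was 2.33 over the 8 feedback genes and -0.64 over the 2 receptors, beside -0.01 over all tested genes.

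**Figure D1:**
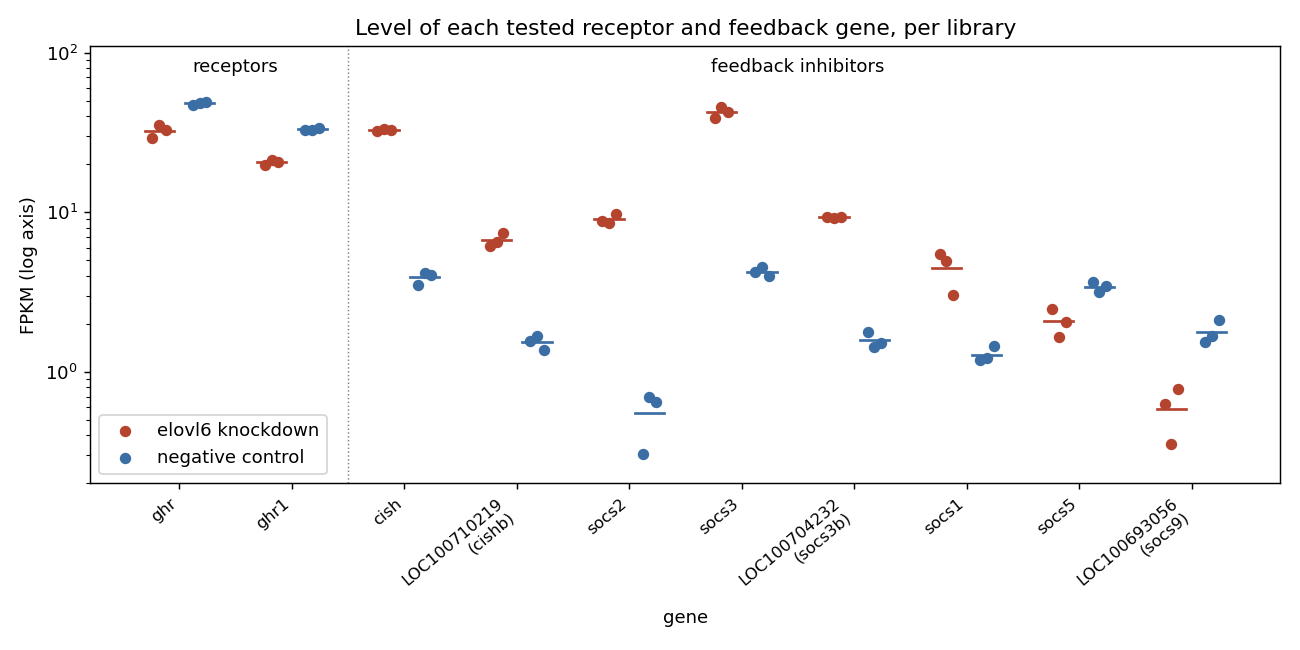
FPKM (log axis) of the 10 tested receptor and feedback genes in each of the 3 knockdown and 3 control libraries, with points for libraries and bars for group means. The knockdown points lie below the control points in both receptors, in socs5 and in LOC100693056, and above them in the other 6 genes.

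Tilapia has a pair of growth hormone receptors, named ghr and ghr1 in the file and ghrb and ghra in NCBI's annotation. The gene ghr lies on linkage group LG7 from 31920219 to 31946837 on the minus strand, and ghr1 on LG12 from 23300286 to 23329182 on the plus strand. Expression of ghr was 29.1, 35.1 and 32.6 FPKM in the knockdown libraries, against 46.7, 48.0 and 49.1 FPKM in the control libraries. For ghr1 the values were 19.7, 21.4 and 20.6 FPKM in knockdown livers and 32.8, 32.9 and 33.5 FPKM in control livers. All knockdown libraries were below all control libraries for both genes. The log2 fold change was -0.58 (SE 0.07, edgeR adjusted p = 4.85e-08) for ghr and -0.70 (SE 0.05, adjusted p = 2.37e-12) for ghr1, so that ghr was 1.49-fold and ghr1 1.62-fold lower. Both changes were of moderate size in these livers, since 31.6% and 28.4% of all tested genes had a lower log2 fold change than ghr and ghr1. Liver samples mix cell types, and fewer cells that make a transcript cannot be told apart from less of it per cell.

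The proportion of the pair differed little, by 0.11 on the log2 scale. Within a library the level of ghr was 1.57 ± 0.0823 times that of ghr1 in knockdown livers and 1.45 ± 0.0216 times in control livers (SD, n = 3 each). The log2 ratio was 0.57, 0.72 and 0.66 in knockdown livers and 0.51, 0.54 and 0.55 in control livers. These did not overlap, but a 2-sided exact permutation of 3 against 3 libraries cannot go below p = 0.1, the value found here, which was also 0.1 after adjustment over the 3 pairs of copies compared.

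The prolactin receptors were at the edge of detection in both groups. The gene prlr had 2, 4 and 1 reads in the knockdown libraries, against 0, 4 and 8 in the control libraries. The gene prlr2 had 0, 1 and 0 reads against 5, 4 and 2, a ratio of 0.102 per library total with a 95% interval of 0.00237 to 0.703 (exact Clopper-Pearson, counting error only). A further gene described as prolactin receptor, LOC100691673, which NCBI names crfa4, had 8, 12 and 17 reads against 9, 6 and 13 (ratio 1.49, interval 0.885 to 2.52). These 3 genes lay at or below 0.266 FPKM in the mean of either group. The remaining one, LOC100690327, had no read in any library, which allows up to 3 reads per group, or 0.0284 FPKM in knockdown livers and 0.0253 FPKM in control livers. None of the 3 genes with reads was past the threshold without a level filter, where prlr2 came to an adjusted p of 0.176 (edgeR). LOC100690327 could not be tested. The receptor pool of these livers, as far as it was measured, was made of ghr and ghr1. The receptor genes lie in pairs on the genome, prlr and ghr on LG7 with 13.8 megabases between them, ghr1 and prlr2 on LG12 with 5.14 megabases, and LOC100691673 and LOC100690327 on LG23 with 0.468 megabases.

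CISH is a classical product of STAT5 activation and binds the receptor at the sites where STAT5 docks. Both tilapia copies rose. The gene cish, on LG5 from 17695373 to 17697812 (minus strand), had 32.1, 33.4 and 32.7 FPKM in the knockdown libraries, against 3.50, 4.18 and 4.07 FPKM in the control libraries. Its second copy LOC100710219, named cishb by NCBI and placed 3.72 megabases further along LG5 (21413108 to 21415238, plus strand), had 6.16, 6.55 and 7.36 FPKM against 1.55, 1.68 and 1.37 FPKM. In each case the lowest knockdown library was well above the highest control library. The log2 fold change was 3.06 (SE 0.10, adjusted p = 6.35e-19) for cish and 2.12 (SE 0.23, adjusted p = 9.12e-09) for LOC100710219, above those of 96.5% and 92.3% of all tested genes. The ratio between the copies was larger in the knockdown, cish having 4.92 ± 0.417 times the FPKM of LOC100710219 in knockdown livers and 2.57 ± 0.362 times in control livers (SD, n = 3 each). The log2 ratio did not overlap between the groups (exact permutation p = 0.1, 2-sided, the smallest possible).

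SOCS2, which recruits a ubiquitin ligase to the growth hormone receptor and whose loss makes mice grow large, had the largest change of the 10 tested members. The gene socs2 (LG17, 22770301 to 22776178, plus strand) had 248, 241 and 288 reads in the knockdown libraries, against 10, 21 and 22 reads in the control libraries. In FPKM this was 8.75, 8.53 and 9.76 against 0.307, 0.695 and 0.647. Its level exceeded that of 70.5% of tested genes in knockdown livers, but of 3.80% in control livers, where it was near the bottom. Its control level lay under 1 FPKM, so it passed the level filter through its knockdown level. Genes low in both groups were not tested, and this filter contributes to the low rank in control livers. The log2 fold change was 4.02 (SE 0.23, adjusted p = 3.95e-14), a 16.3-fold rise, above that of 98.0% of all tested genes. With few control reads its size is less certain than its direction, and over the alternative fits it ranged from 2.70 to 4.21.

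SOCS3 is induced by STAT3 as well as by STAT5 and inhibits JAK kinases bound to the shared cytokine receptor chain gp130, to the leptin receptor and to the growth hormone receptor. Both copies rose. The gene socs3 (LG4, 21258203 to 21260764, plus strand) had 39.0, 45.8 and 42.3 FPKM in the knockdown libraries and 4.23, 4.50 and 3.97 FPKM in the control libraries. LOC100704232, NCBI's socs3b (LG8, 9864474 to 9873405, plus strand), had 9.36, 9.21 and 9.30 FPKM against 1.78, 1.44 and 1.51 FPKM. The libraries of each group lay close together and far from those of the other group. The log2 fold change was 3.32 (SE 0.09, adjusted p = 1.99e-20) for socs3, a 9.96-fold rise, and 2.55 (SE 0.11, adjusted p = 2.30e-16) for LOC100704232, a 5.85-fold rise. As in the CISH pair, the ratio of the more abundant copy to the other was higher in the knockdown. The level of socs3 was 4.57 ± 0.405 times that of LOC100704232 in knockdown livers and 2.71 ± 0.388 times in control livers (SD, n = 3 each; log2 ratios not overlapping, exact permutation p = 0.1, 2-sided, the smallest possible).

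SOCS1, best known as the brake on interferon gamma signalling, had lower levels and more spread. The gene socs1 (LG4, 12369791 to 12371636, plus strand, 8.89 megabases from socs3) had 5.47, 4.98 and 3.04 FPKM in the knockdown libraries, against 1.19, 1.22 and 1.44 FPKM in the control libraries. The third knockdown library was the lowest of its group but still above every control library. The rise was 3.47-fold (log2 fold change 1.79, SE 0.35, adjusted p = 5.51e-05). A second gene described as SOCS1, LOC100702935 (LG6, 13546347 to 13559640), lay below the level filter with 35, 49 and 85 reads against 24, 32 and 24 reads. Here the third knockdown library was the highest. The ratio of reads per library total was 2.37 (95% interval 1.81 to 3.14, counting error only), and without a level filter the gene passed as higher (log2 fold change 1.12, SE 0.35, adjusted p = 0.00318).

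Among the genes of the other branch chosen here, 2 tested ones fell. LOC100708692, described as SOCS7 but left out by the wording of the choice, as its description opens with a quality note, rose slightly (7.35 ± 0.255 FPKM in knockdown livers, 5.68 ± 0.552 FPKM in control livers, log2 fold change 0.37, SE 0.08, adjusted p = 0.000365). Expression of socs5 (LG13, 27941434 to 27958874, plus strand) was 2.49, 1.66 and 2.05 FPKM in the knockdown, against 3.65, 3.17 and 3.44 FPKM in the control libraries. LOC100693056, which the file describes as SOCS4 and NCBI names socs9 (LG14, 26921609 to 26925784, minus strand), had 0.625, 0.354 and 0.782 FPKM against 1.53, 1.68 and 2.11 FPKM. Both fell, socs5 by 0.74 (SE 0.13, adjusted p = 1.74e-05) and LOC100693056 by 1.60 (SE 0.34, adjusted p = 0.000149) on the log2 scale, with no overlap between groups. The knockdown level of LOC100693056 lay under 1 FPKM, so this gene passed the level filter through its control level. Below the filter, socs6, which binds components of insulin signalling, had 9, 3 and 3 reads against 67, 36 and 59 (ratio 0.104 per library total, 95% interval 0.0569 to 0.177). It passed as lower without a level filter (log2 fold change -3.33, SE 0.50, adjusted p = 8.24e-11). The gene socs4 had 46 reads in knockdown livers, against 40 in control livers, and socs7 had 7 and 11. Neither passed without a filter (adjusted p = 0.742 and 0.758), and at this depth no difference was detectable in them. Without the filter 12 of 12 feedback genes could be tested, of which 7 were higher and 3 lower, beside 26.5% and 25.9% of all 22678 genes tested that way, 52.4% in all.

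**Figure D2:**
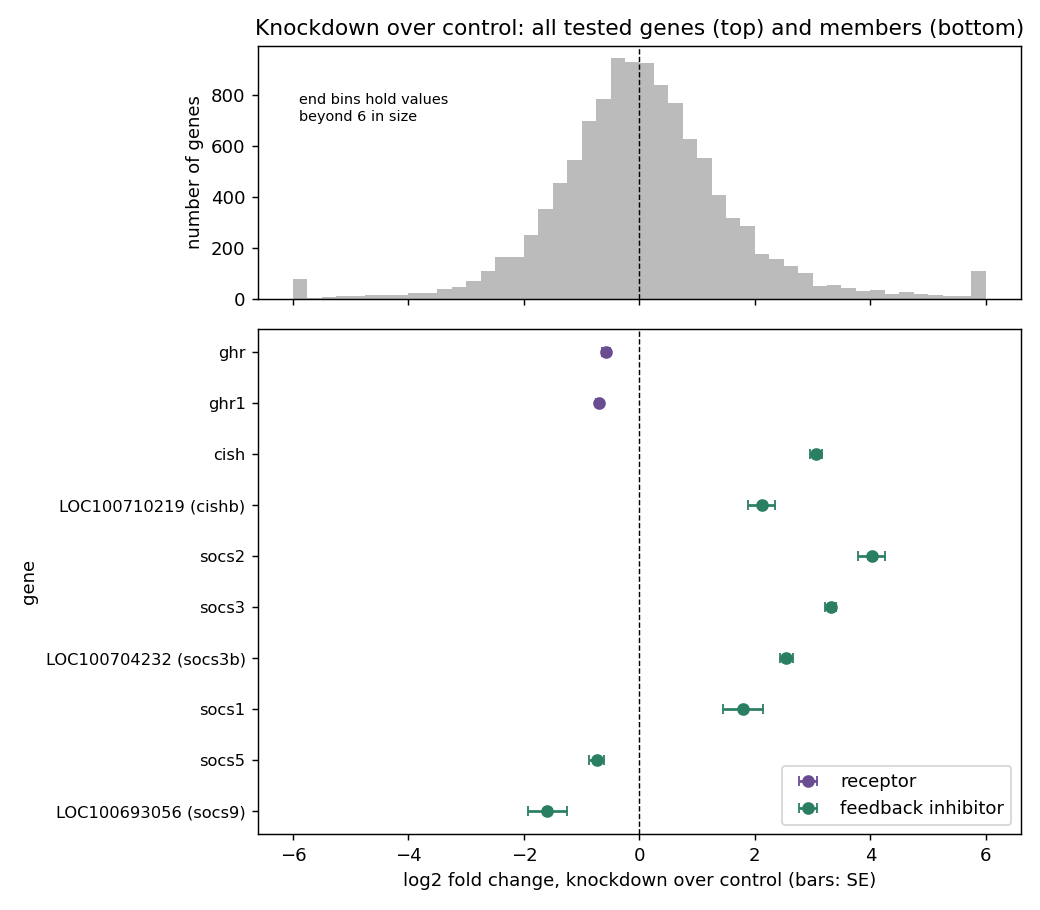
Top, histogram of the log2 fold change, knockdown over control, of all 11431 tested genes, whose end bins hold values beyond 6 in size. Bottom, the log2 fold change with its standard error for the 2 receptors (purple) and 8 feedback genes (green). The dashed line is the median of all tested genes, with the receptors and the lower feedback genes to its left and cish, socs1, socs2, socs3 and their copies between 1.79 and 4.02 to its right.

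The balance between the 2 classes of gene was reversed between the groups. Per library, the 12 feedback genes summed to 105, 111 and 109 FPKM in knockdown libraries, and to 19.3, 19.8 and 19.8 FPKM in the control. The 6 receptor genes summed to 49.1, 56.9 and 53.6 FPKM in knockdown libraries, and to 79.8, 81.3 and 83.2 FPKM in the control. Feedback transcripts were the more abundant class in every knockdown library and receptor transcripts in every control library. The feedback sum was 2.04 ± 0.0903 times the receptor sum in knockdown and 0.241 ± 0.0021 times in control livers (SD, n = 3 each). This ratio is taken within a library and does not depend on scaling between libraries. On the log2 scale it was 1.03 ± 0.06 in knockdown livers and -2.05 ± 0.01 in control livers, a difference of 3.08. No test is given for this sum over chosen genes.

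The make-up of the feedback sum differed too, though it depends on which SOCS7 gene is counted. The copies of cish, socs1, socs2 and socs3 together had 105 ± 3.91 FPKM in knockdown livers and 13.4 ± 0.647 FPKM in control livers, while the remaining 5 genes, the SOCS4 to SOCS7 and socs9 branch, had 2.87 ± 0.632 FPKM in knockdown and 6.21 ± 0.498 FPKM in control livers (SD, n = 3 each). With LOC100708692, the most abundant gene of this branch, the branch had 10.2 ± 0.856 FPKM in knockdown and 11.9 ± 0.758 FPKM in control livers, a smaller relative difference. That branch made up 2.66% ± 0.661 of the feedback sum in knockdown and 31.6% ± 2.69 in control livers, or 8.86% ± 0.976 and 47.0% ± 2.19 with LOC100708692. The copies of cish and socs3 alone held 84.1% ± 1.33 in knockdown and 57.4% ± 2.33 in control livers, or 78.8% ± 1.57 and 44.5% ± 2.28 with that gene. The feedback sum was then 2.18 ± 0.106 times the receptor sum in knockdown and 0.311 ± 0.0047 times in control livers. This division of the family was made after the values had been seen.

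**Figure D3:**
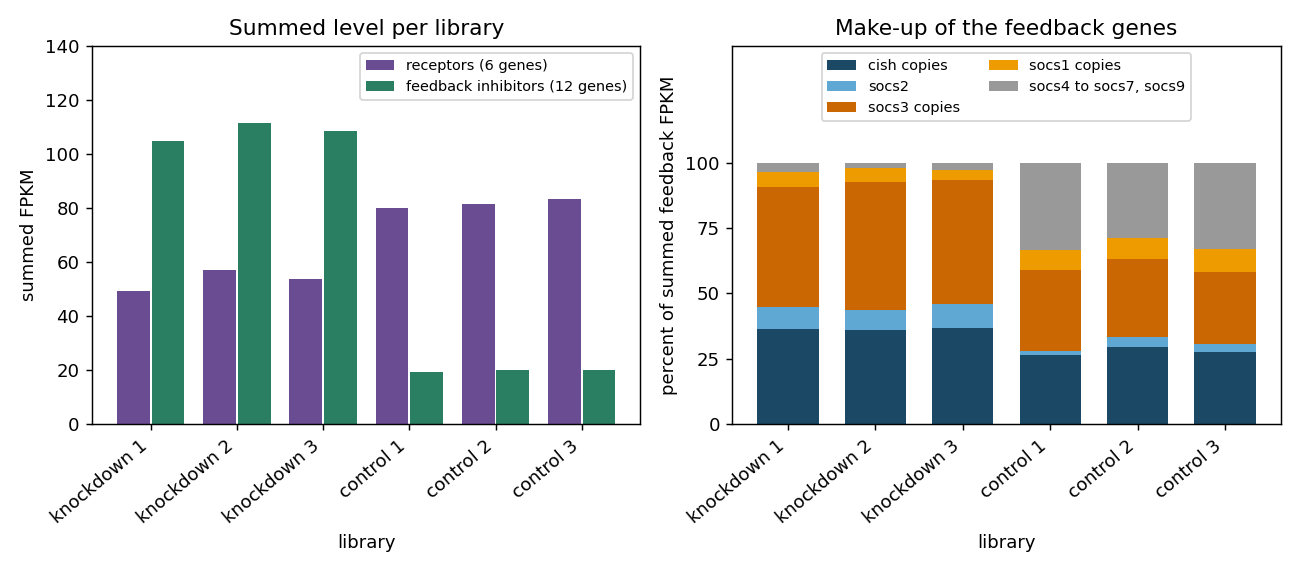
Left, summed FPKM of the 6 receptor genes (purple) and the 12 feedback genes (green) in each library, from 0. Right, the percentage of the summed feedback FPKM held by the copies of each gene. Feedback sums of 105 to 111 FPKM exceed receptor sums in the knockdown libraries, whereas in the control libraries the receptors reach 79.8 to 83.2 FPKM and the grey SOCS4 to SOCS7 and socs9 branch takes up about 31.6% of the feedback sum. LOC100708692 is not in the plot.

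Among the 10 tested members, socs3 had the highest level in the knockdown livers with 42.4 ± 3.40 FPKM, followed by cish (32.7 ± 0.659), ghr (32.3 ± 3.0) and ghr1 (20.5 ± 0.842). Of these neighbours, cish and ghr had overlapping ranges. LOC100704232 (9.29 ± 0.0796) and socs2 (9.01 ± 0.656) overlapped as well and were followed by LOC100710219, socs1, socs5 and LOC100693056. The control livers were led by ghr (48.0 ± 1.21 FPKM) and ghr1 (33.1 ± 0.396). Then came socs3 (4.23 ± 0.265), cish (3.91 ± 0.364) and socs5 (3.42 ± 0.238), of which socs3 overlapped with cish and cish with socs5, and LOC100693056, LOC100704232, LOC100710219 and socs1 followed between 1.77 and 1.28 FPKM with overlapping neighbours. The gene socs2 was the lowest of the 10 at 0.550 ± 0.212 FPKM. Of the 8 members below the filter, socs6 lay above socs2 in control livers, at 0.908 ± 0.238 FPKM. Counts per kilobase compare genes of different length, and reads of near-identical copies could have been split between them in the counting.

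Tested kinases between the receptors and the feedback genes were lower or not called. The list of Janus kinases took in 8 genes, of which 3 encode Janus kinase-interacting proteins and no kinase. Of its 4 tested members 3 fell and none rose (median log2 fold change -0.74). Counts of this list and of those below stand beside 39.1% higher and 39.1% lower among all tested genes. The JAK2 copy jak2b (LOC100692564) had 3.92, 3.79 and 3.74 FPKM in the knockdown, against 6.26, 6.83 and 7.12 FPKM in the control (log2 fold change -0.83, SE 0.10, adjusted p = 5.37e-08). The other copy, jak2a (LOC100710044), had 6.40, 5.64 and 6.13 FPKM against 5.14, 4.95 and 5.74 FPKM and did not pass (log2 fold change 0.19, SE 0.10, adjusted p = 0.0822). JAK1, which serves interferon and gp130 receptors, fell the furthest, with 5.72 ± 0.585 FPKM in knockdown livers and 16.4 ± 0.992 FPKM in control livers (log2 fold change -1.52), and tyk2 fell by 0.66 on the log2 scale.

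Among 8 STAT genes, the transcription factors of the pathway, 3 of 7 tested rose and 1 fell (median 0.09). Of 3 genes described as STAT5B, 1 rose and 1 fell. LOC100692331, named stat5a by NCBI, had 7.50, 7.59 and 7.98 FPKM in knockdown livers, against 4.36, 5.07 and 4.94 FPKM in control livers (log2 fold change 0.68, SE 0.10, adjusted p = 6.86e-07). LOC100690945 had 2.07, 2.17 and 2.42 FPKM against 3.83, 3.74 and 4.13 FPKM (log2 fold change -0.82, SE 0.11, adjusted p = 2.90e-07). The remaining one, which NCBI names stat6 (LOC100704348), was not called (adjusted p = 0.646). For stat3, which acts downstream of gp130, the rise was small (log2 fold change 0.23, SE 0.06, adjusted p = 0.00142), and it was lost without a level filter (adjusted p = 0.0699).

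Growth hormone is known to maintain igf1 and igfals in liver, and both were lower. All 3 tested growth axis targets fell (median log2 fold change -1.70), and the fourth, insulin-like growth factor 3, had no read. The main target igf1 had 44.1, 46.3 and 45.1 FPKM in the knockdown libraries, against 122, 126 and 126 FPKM in the control libraries. Its log2 fold change was -1.47 (SE 0.04, adjusted p = 2.20e-20), with a wide gap between the groups. The log2 fold changes of igf2 and igfals were -2.66 and -1.70.

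Genes in the lists of other regulators, not all of which restrain the pathway, moved in both directions, as all tested genes did (39.1% higher, 39.1% lower). Counts of higher genes among the adapters and the phosphatases were close to that share of higher genes. Of 11 adapters and ubiquitin ligases 3 of 7 tested rose and 3 fell (median -0.16). One of 2 tested copies of GRB10, an adapter that restrains insulin and growth factor receptors, LOC100694675, rose to 10.7, 10.5 and 12.3 FPKM in the knockdown, against 1.91, 1.86 and 1.66 FPKM in the control (log2 fold change 2.62, SE 0.08, adjusted p = 3.96e-20). The other, grb10b (LOC100703704), fell (-0.57, SE 0.12, adjusted p = 0.000123). The CBL family ligase genes LOC102082136 and cbl rose (0.85 and 0.67), and LOC100692645 was not called (-0.16). Below the filter, LOC100704398 had 21 reads in knockdown livers, against 94 in control livers, and LOC100699525 had 33 against 90. Both of these passed as lower without a level filter (edgeR adjusted p = 0.000463 and 0.0148). The adapter gene sh2b2 fell (-0.62), a call lost without knockdown library 3 (adjusted p = 0.0667) or control library 3 (adjusted p = 0.0551). In the list of phosphatases, whose wording also took in types 21, 22 and 23, 3 of 8 tested rose and 2 fell (median 0.15). The copies of PTPN11, a phosphatase that carries growth factor signals forward, moved in opposite directions. LOC100700918 had 4.12 ± 0.316 FPKM in knockdown livers and 1.38 ± 0.209 in control livers (log2 fold change 1.56), and ptpn11 had 2.84 ± 0.395 and 7.05 ± 0.220 FPKM (-1.32). Type 21 rose (1.04) and LOC100711916, a type 2 gene, fell (-0.81). Of the PIAS genes, which restrain STAT proteins, pias1 rose (0.75) and pias4 fell (-0.71), and the other 2 of 4 tested were not called (median -0.14).

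The ligase that SOCS boxes recruit is built of elongins, cullin-5 and RNF7, and of 5 tested subunit genes 3 fell and none rose (median -0.24). The cullin gene cul5 had 1.91, 3.40 and 3.22 FPKM in the knockdown, against 4.84, 4.95 and 5.19 FPKM in the control (log2 fold change -0.82, SE 0.17, adjusted p = 0.000119). Elongin-B genes LOC100692966 and elob fell by 0.57 and 0.24.

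No transcript of the receptors' ligands was detected. The genes of growth hormone, both prolactins and somatolactin had no read in either group. The list's 18 reads in knockdown livers and 2 in control livers belonged to receptors of prolactin-releasing peptide, which its wording also took in. The 10 pituitary marker genes held 1 read in each group.

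Among other receptors that use Janus kinases and induce SOCS genes, 9 of 16 tested rose and 5 fell (median 0.46). This list's wording also took in the leptin receptor-related genes leprot and leprotl1. A gene for the gp130 chain of the interleukin-6 receptor, LOC100710927, had 3.09, 1.87 and 2.25 FPKM in knockdown livers and 0.0532, 0.101 and 0.140 FPKM in control livers (log2 fold change 4.58, SE 0.34, adjusted p = 5.56e-12). The main gp130 gene, il6st, was more abundant and was not called, with 19.2, 19.8 and 18.9 FPKM against 21.1, 18.5 and 20.8 FPKM (log2 fold change -0.07, SE 0.07, adjusted p = 0.350, or 0.0415 without a level filter). Another gene of that description, LOC102078481, had 5.89 ± 0.428 FPKM against 4.28 ± 0.254 FPKM (log2 fold change 0.45, SE 0.13, edgeR adjusted p = 0.00243). The gene that NCBI names il6r, LOC100702023, fell, with 6.27 ± 0.594 FPKM against 15.3 ± 0.431 FPKM (log2 fold change -1.29, SE 0.08, edgeR adjusted p = 2.44e-13). The receptor of granulocyte colony-stimulating factor, csf3r, carried by neutrophils and macrophages, rose to 7.57 ± 0.552 FPKM in the knockdown, against 0.649 ± 0.134 FPKM in the control (log2 fold change 3.52). LOC100707437, the beta chain shared by several myeloid cytokine receptors, rose as well (2.44). The leptin receptor gene lepr had a mean of 1.68 FPKM in knockdown and 0.75 FPKM in control livers (log2 fold change 1.15). Control means of LOC100710927, csf3r, LOC100707437 and lepr lay under 1 FPKM, so these passed the level filter through their knockdown levels. The 9 higher genes of the list include all of these. The erythropoietin receptor gene LOC100706201 fell (-2.45), beside the lower red blood cell genes given above. The tested macrophage markers given above were higher, as were these myeloid receptors. A comparison of knockdown with control libraries alone cannot show whether the markers and receptors are linked. The 5 neutrophil genes summed to 74.8 to 79.9 FPKM in knockdown livers and 56.5 to 57.1 FPKM in control livers, with 3 of 3 tested higher. Most of the neutrophil sum came from nccrp1, described as F-box only protein 50 (mean 51.2 FPKM in knockdown and 42.4 FPKM in control livers). Of 6 B cell genes the 2 tested rose, while 3 of the 4 below the filter had a lower mean FPKM in the knockdown. The tested B cell gene LOC100693204 had a control mean of 0.373 FPKM and passed the level filter through its knockdown level. Of 6 endothelium genes the 3 tested rose, while 2 of the 3 below the filter were lower in the mean. Of 14 T cell genes 1 was tested, which rose, 4 had no read, and of the other 9 the mean was lower in 7 and higher in 2. SOCS1 and SOCS3 are expressed in leukocytes as well as in hepatocytes, and what part leukocytes had in their rise was not tested.

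**Figure D4:**
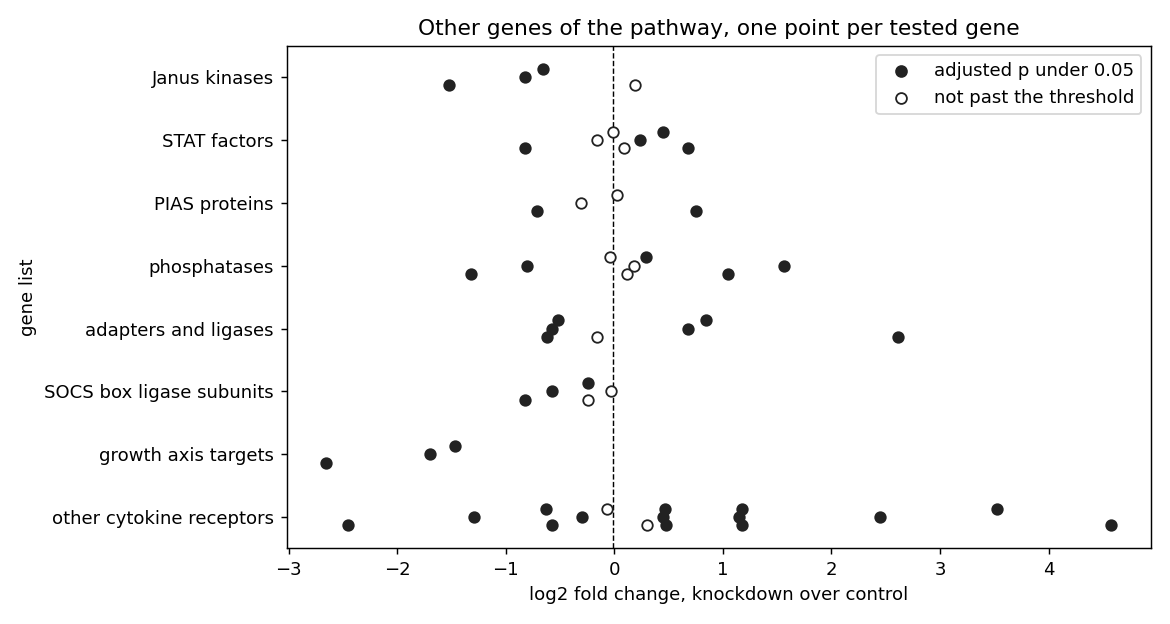
Log2 fold change, knockdown over control, of each tested gene in 8 lists of the pathway, with filled points for an adjusted p under 0.05 (edgeR) and open points for the others, and a dashed line at the median of all tested genes. The 3 growth axis targets and the called Janus kinases and SOCS box ligase subunits lie left of the line, and the other lists lie on both sides.

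The file's own annotation of the JAK-STAT pathway holds 191 genes, 16 of them among the 18 described here. Of the other 175, 91 were tested, of which 49 rose and 25 fell (median log2 fold change 0.37). The called genes with the largest change were a Myc gene, LOC100703314 (4.67), the gp130 gene LOC100710927, LOC100689976, which NCBI names thpo (3.80), and csf3r. Control means of LOC100703314, LOC100710927 and csf3r were 0.216, 0.0981 and 0.649 FPKM, so these passed the level filter through their knockdown levels. The share of higher genes, 49 of 91, stands beside 39.1% of all tested genes.

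The 3 genes outside the family whose centred log2(FPKM + 1) followed that of cish most closely over the 6 libraries were a histone H1.0 gene (LOC100699085), mat2a, which makes S-adenosylmethionine, and LOC102076024, described as toll-like receptor 1. Their root mean square distances from cish were 0.0532, 0.0557 and 0.0567. The histone gene had 164, 170 and 168 FPKM in knockdown livers and 20.7, 24.4 and 26.5 FPKM in control livers, with a log2 fold change of 2.80. For mat2a the log2 fold change was 2.72. For LOC102076024 it was 5.65, against 3.06 for cish. With a control mean of 0.132 FPKM, LOC102076024 passed the level filter through its knockdown level. The 1 added before the log shrinks changes of genes so near 0, so LOC102076024 was not close to cish in fold change.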

How the data were processed

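RNA of 6 tilapia liver libraries was analysed, 3 with elovl6 knockdown and 3 negative controls. Per the labels' protocols, poly(A) RNA was captured with oligo-dT and sequenced as 150-base pairs. The tools named by the submitters' processing notes are cutadapt 1.9 and HISAT. Not given in the sources used here are the counting program, its use of strand and the build, so antisense reads could not be told apart. The deposited counts are whole reads per gene. The authors' FPKM equalled count over gene length and library total in 100% of values above 0, within a relative tolerance of 1e-05. Coordinates are those of the file. All 18 members have the same start and end in NCBI's O_niloticus_UMD_NMBU table, which also gave linkage groups and second symbols.

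Counts were tested with the quasi-likelihood test of edgeR 4.0.16 under R 4.3.3, with TMM scaling and no covariate, in the 11431 genes averaging 1 FPKM or more, with Benjamini-Hochberg adjustment over all of them and calls under 0.05. The standard error is the log2 fold change divided by the root of F. On simulated data of 11431 genes, 100 were changed 2-fold and 100 by 2 on the log2 scale. Of the 2-fold genes 97 were recovered, with 6 false calls. Far fewer genes changed there than in these livers, so it does not show how the test behaves with most genes changed. Members below the filter are given as reads, with 95% exact intervals of the ratio that cover counting error only. Alternatives used limma 3.58.1 and DESeq2 1.42.0. Named genes were elovl6, all members, up to 4 called genes without overlap and with the largest change per list, and the 3 genes most like cish. The genes jak2a, jak3, stat6, grb10b, il6st, LOC102078481, il6r and LOC100708692 were added after their values were seen. So were lepr, LOC100692645, LOC100704398, LOC100699525 and the marker genes named singly. A gene that this rule named is not reported here. Members and lists were chosen with earlier results of these data known.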

Additional observations from a re-analysis of the deposited data

How the results depend on the processing

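Each of the 10 tested members kept its direction and its side of the threshold in every alternative that tested it: other scaling (DESeq2 size factors, library totals, exocrine pancreas genes left out), no filter, a filter of 5 FPKM, DESeq2, limma with a pseudocount of 1 or 0.1, each library left out, and the replicate block. Over these fits the log2 fold change was 1.24 to 2.01 for socs1 and -1.86 to -0.81 for LOC100693056 (smallest with limma and a pseudocount of 1, which shrinks changes of low genes). A minimum of 5 FPKM leaves fewer genes to test, with 2341 higher and 2321 lower, of which 3 and 2 were members. With a library left out, 4265 to 4386 genes were higher and 4240 to 4398 lower, and among members 6 were higher and 4 lower each time. The feedback to receptor difference, 3.08 on the log2 scale, was 3.01 with 1 added to each sum, 3.17 over tested members only and 1.19 as a difference of mean log2(FPKM + 1), which weights the unread genes equally. Counting LOC100708692 as a feedback gene, a choice made after seeing the data, gave 2.81. Over the chosen members the difference was 3.05 to 3.11 with a library left out, and the log2 ratio of ghr to ghr1 differed by 0.08 to 0.15. Same-numbered libraries did not deviate together (r = 0.00106, 0.0067 and 0.00174), and not every library correlated best with its own number. The replicate block gave 4409 higher and 4447 lower genes, with 6 and 4 members. The genes socs6, LOC100702935, prlr2, socs4 and socs7 are limited by depth.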

Other observations

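Proteins with a SOCS box but no place in the SOCS family were looked at after the values had been seen. Of 31 genes described as ankyrin repeat, SPRY domain or WD repeat proteins with a SOCS box, 16 were tested, of which 10 rose and 2 fell (median log2 fold change 1.22, beside -0.01 over all tested genes). Among all tested genes 39.1% were higher and 39.1% lower. The WD repeat gene wsb1 had 11262 reads over the knockdown libraries, against 2302 over the control libraries (log2 fold change 2.45, edgeR adjusted p = 4.32e-22), and wsb2 rose by 2.21. The ankyrin repeat gene asb4 had 3968 reads against 597 (log2 fold change 2.89, adjusted p = 7.64e-18). The ankyrin repeat genes that fell were LOC100706466 and LOC100709444, both described as protein 13 of that family (log2 fold changes -0.68 and -0.69). The knockdown mean of LOC100709444 was 0.940 FPKM, so it passed the level filter through its control level. Another ankyrin repeat gene, LOC100702703, rose (log2 fold change 3.30). Its control mean was 0.470 FPKM, so it passed through its knockdown level.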
